A study of Arabidopsis thaliana with 24 samples.

Results

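The genes described here are the 10 Arabidopsis MADS-box genes that specify the organs of the flower: AG (AT4G18960), AP1 (AT1G69120), AP3 (AT3G54340), PI (AT5G20240), SEP1 (AT5G15800), SEP2 (AT3G02310), SEP3 (AT1G24260), SHP1 (AT3G58780), SHP2 (AT2G42830) and STK (AT4G09960). They were picked by locus, among 34290 genes and probe names on the array, with AG already known to be higher in the roots of inducible plants after estradiol. All 10 loci were on the array, with 14 probes of 43603. Their values in the estradiol-treated inducible lines are therefore given as a description: the fit's calls are counted beside the share of all genes called, and nothing is read from them as a test. Roots of Col-0 background plants were measured on 24 one-colour Agilent arrays, 3 for each of 4 lines (control, ISH1, ISH2 and ISH1&2) with and without 5 µM estradiol. Seedlings of every group were selected on hygromycin, moved at 8 d to plates with or without estradiol, and harvested at 15 d. The inducible lines carry a 35S-driven XVE activator, which binds estradiol and then switches on a LexA-operator promoter, so the induced gene is expressed in all cells that express XVE and not in its own domain. ISH1&2 plants carry both inducible genes of the study, ATHB25, a zinc-finger homeodomain gene, and REM7, a B3-domain gene. The labels do not say which of them ISH1 or ISH2 carries, nor what the control plants carry, nor whether replicates were separate cultures, so p-values measure only the spread between these samples.

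Flower organs form under the combined action of MADS-domain proteins that bind DNA as multimers. AP1 (class A) acts in sepals and petals, AP3 and PI (class B) act as obligate partners in petals and stamens, and AG (class C) acts in stamens and carpels. SHP1, SHP2 and STK are the closest relatives of AG and act in fruit and ovules, and the SEP proteins (class E) are the partners that join the others into complexes. In roots these genes are held low by Polycomb repression, and LFY, WUS and UFO are known activators of AG or AP3 in the flower meristem.

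A log2 level is the log2 of the probe signal of a gene minus the 75th percentile of its array, so a value of 0 lies at that percentile and the levels of different probes cannot be set against each other. A probe is called well above background where the scanner software says so on that array. On the 24 arrays, 76.9% to 84.8% of probes were well above background, except on replicate 1 of uninduced ISH1, which reached 90.9%. That array stood apart for several of the genes below, and values of the 10 genes that rest on it are given with and without it. Each slide held all 4 lines of 1 treatment and 1 replicate, so a response to estradiol is a difference between slides and a difference between lines lies within slides. ATHB25 had a log2 level of 5.31, 5.16 and 5.23 on the ISH1 arrays with estradiol, against -4.19, -4.60 and -4.58 without. In ISH1&2 it was 4.14, 4.23 and 4.36 with estradiol and -1.18, -0.14 and -0.61 without, and on the control arrays without estradiol it was not well above background. REM7 had a log2 level of 6.37, 6.02 and 6.02 on the ISH2 arrays with estradiol and 0.18, 0.06 and -0.16 without. In ISH1&2, REM7 was already at 4.52, 4.53 and 4.64 without estradiol and at 4.70, 4.71 and 4.58 with it, far above the control line at -1.72, -1.72 and -1.47. In ISH1&2 the estradiol difference was therefore 4.89 for ATHB25 and 0.10 for REM7 (SE 0.41, adjusted p = 0.848). REM7 was also higher in ISH1 with estradiol, at 2.59, 0.80 and -0.19 against -1.66, -1.60 and -1.56 without (adjusted p = 1.7e-05). For 2 control arrays (untreated replicate 2 and treated replicate 3) the description contradicts the title, which was followed.

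**Figure D1:**
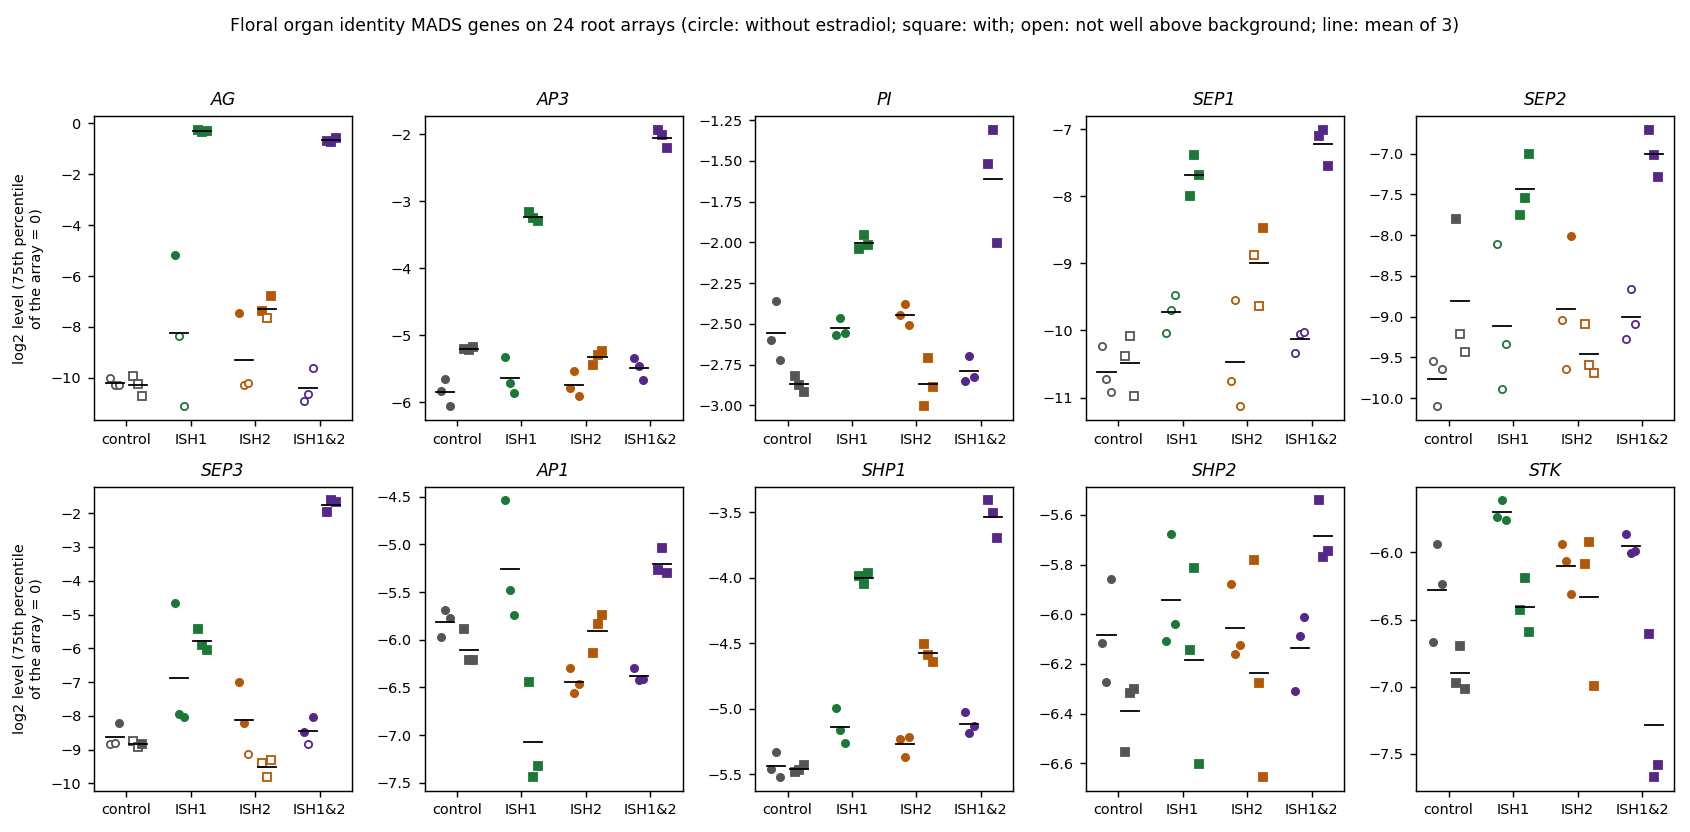
Log2 level (vertical axis, 75th percentile of the array at 0) of the 10 genes on 24 arrays, by line (horizontal axis); circles are without and squares with estradiol, open symbols are not well above background, and lines are means of 3. AG stood near 0 on the ISH1 and ISH1&2 arrays with estradiol and SEP3 at -1.96 to -1.62 in ISH1&2 with estradiol.

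Without estradiol, 6 of the 10 genes (AP1, AP3, PI, SHP1, SHP2 and STK) were well above background on all 3 arrays of the control, ISH2 and ISH1&2 lines, and SEP3 joined them in ISH1. With estradiol, all 10 were well above background on all 3 arrays of ISH1 and of ISH1&2, while the control line and ISH2 stayed at 6, or 7 in ISH2 when the other AG probe is counted. A probe had to be well above background on all 3 arrays of a group to enter the fit. All 10 genes did so, but AG, SEP1 and SEP2 only through ISH1 or ISH1&2 with estradiol, where they had to differ, so no count over the 10 is offered as support. In ISH1&2, 8 genes were called higher and 1 lower with estradiol (limma over 27814 genes, adjusted p under 0.05), where 64.6% of all genes were called, 31.6% higher and 33% lower. In ISH1, 6 were called higher and 2 lower, where 62.8% of all genes were called, 26.3% higher and 36.4% lower. In ISH2, 3 were called higher and 1 lower, where 49.2% of all genes were called (27.3% higher and 21.9% lower), and 1 of these, SEP1, was well above background on just 1 of the 6 arrays. The median difference of the 10 genes was 1.79 in ISH1&2, 1.12 in ISH1 and 0.12 in ISH2, beside medians of -0.01, -0.08 and 0.04 over all genes. In ISH1&2 the 3 arrays with estradiol lay above the 3 without for 9 of the 10 genes and below for STK, and over all genes this was so for 35.2% and 35.8%. These arrays measure whole roots, so more cells that express a gene and more RNA per cell cannot be told apart.

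AG, the class C gene, gave the largest difference of the 10. Its brightest probe read -0.26, -0.33 and -0.28 on the ISH1 arrays with estradiol and -0.67, -0.73 and -0.57 on those of ISH1&2. On the control arrays it read -10.00, -10.30 and -10.26 without and -9.92, -10.26 and -10.72 with estradiol, none of them well above background. AG thus lay near the 75th percentile of the array in ISH1 and ISH1&2 with estradiol and was not detected in the control line. In ISH1&2 all 3 uninduced arrays were at background, so its difference is a bound of at least 270.2-fold by this probe and at least 383-fold by the other. With normexp background correction the brightest probe gave 5.37 (SE 0.57) on the log2 scale, below its bound of 8.08, and 5.05 in ISH1. In ISH1 the arrays without estradiol read -5.17, -8.37 and -11.12, of which the first, from the array that stood apart, was well above background. The fitted difference in ISH1 was 7.93 (SE 0.97), from 1 uninduced array above background. Without that array, AG was at background on both remaining uninduced arrays and at least 347-fold higher with estradiol. The other probe, which had no ISH1 array above background without estradiol, gave at least 380.4-fold. With estradiol, ISH1&2 read 0.37 lower than ISH1 by the brightest probe (SE 0.97), with per-slide differences from -0.42 to -0.29.

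AG was much lower in ISH2. Its arrays read -7.38, -7.65 and -6.80 with estradiol, 2 of 3 well above background, and -7.45, -10.29 and -10.20 without, 1 of 3 above background. The groups overlapped by this probe, the difference was 2.04 (SE 0.97) and it was not called. The other AG probe was well above background on all 3 ISH2 arrays with estradiol, at -7.00, -7.37 and -6.44, and on none of 3 without. By that probe AG was at least 3.32-fold higher. On the slides with estradiol, AG in ISH2 lay below AG in ISH1 by 6.51 to 7.32 on the log2 scale.

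The class B genes were detected in every group. AP3 read -1.93, -2.01 and -2.21 in ISH1&2 with estradiol and -5.34, -5.46 and -5.67 without, a difference of 3.44 (SE 0.13) or 10.8-fold. In ISH1 it read -3.16, -3.24 and -3.30 with and -5.32, -5.71 and -5.86 without estradiol, a difference of 2.40 (SE 0.13) or 5.28-fold. The ISH1&2 arrays were above the ISH1 arrays of the same slide by 1.09 to 1.23, and neither overlapped its uninduced arrays. AP3 also differed in the control line, at -5.20, -5.22 and -5.18 with and -5.83, -5.65 and -6.06 without estradiol. That difference of 0.65 (SE 0.13) was called (adjusted p = 0.00336) and was the only one of the 10 called in the control line, where 15% of all genes were, 7.14% higher and 7.85% lower. In ISH2 the difference was 0.42 (SE 0.13), so relative to the control line it was -0.23 (SE 0.19), against 1.75 in ISH1 and 2.79 in ISH1&2 (SE 0.19 each).

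PI, the partner of AP3, was well above background on all 24 arrays. It read -1.52, -1.31 and -2.00 in ISH1&2 with estradiol and -2.85, -2.70 and -2.82 without, a difference of 1.18 (SE 0.13). In ISH1 the difference was 0.52 (SE 0.13), from -2.57, -2.46 and -2.55 to -2.04, -1.96 and -2.02. In ISH2 PI was lower with estradiol, at -3.01, -2.71 and -2.89 against -2.45, -2.38 and -2.51, and in the control line at -2.82, -2.88 and -2.92 against -2.60, -2.36 and -2.72. The control difference of -0.31 (SE 0.13) did not pass (adjusted p = 0.106), and that of ISH2 was -0.42. The PI response minus that of the control line was 0.83 in ISH1, 1.49 in ISH1&2 and -0.11 in ISH2 (SE 0.18 each).

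Of the class E genes, SEP3 separated ISH1&2 from the other lines most. Its brightest probe read -1.96, -1.62 and -1.68 in ISH1&2 with estradiol and -8.47, -8.83 and -8.02 without, the second of these not well above background, a difference of 6.69 (SE 0.64) or 103-fold. In ISH1 it read -5.42, -5.90 and -6.04 with estradiol and -4.67, -7.95 and -8.03 without. The array that stood apart thus read above all 3 induced ISH1 arrays, and the groups overlapped. The ISH1 difference of 1.10 (SE 0.64) was not called, and it was 2.21 (SE 0.40) and called without that array. The other SEP3 probe, which had 0 arrays above background in ISH1 and ISH1&2 without estradiol, gave at least 1.94-fold in ISH1 and at least 38.1-fold in ISH1&2. With estradiol, ISH1&2 lay above ISH1 by 4.03 (SE 0.64), or 16.3-fold, and by 3.45 to 4.35 on each slide. In ISH2, SEP3 was at background on all 3 arrays with estradiol, at -9.39, -9.81 and -9.31, and above it on 2 of 3 without, at -7.00 and -8.21. These groups did not overlap, but the remaining array without estradiol, at -9.11, was at background too. By this probe SEP3 was at least 1.12-fold lower with estradiol (fitted difference -1.39, SE 0.64, not called). The other probe was at background on every ISH2 array, with a difference of 0.39.

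SEP1 and SEP2, which act in all whorls with SEP3, were above background on all 3 arrays of ISH1 and of ISH1&2 with estradiol. SEP1 read -7.09, -7.01 and -7.55 in ISH1&2 and -8.00, -7.39 and -7.68 in ISH1 with estradiol, and no array of these lines was above background without it. Its bounds were at least 2.87-fold in ISH1&2 and at least 1.70-fold in ISH1. In ISH2 SEP1 was above background on 1 array with estradiol, at -8.48. SEP2 read -6.71, -7.02 and -7.28 in ISH1&2 and -7.75, -7.54 and -7.01 in ISH1 with estradiol, bounds of at least 3.32-fold and at least 2.03-fold. With normexp background correction the ISH1&2 differences were 0.53 for SEP1 and 0.54 for SEP2 (SE 0.68 and 0.67). These lay below their bounds of 1.52 and 1.73 on the log2 scale. In ISH1 the values were 1.03 and 1.04, and none of these differences was called. In the control line 1 array with estradiol was above background for SEP2, at -7.80, close to the lowest induced ISH1 array at -7.75. The SEP1 values rest on 1 probe: the other was above background on 1 array each of ISH1 without and ISH1&2 with estradiol, and its ISH1 difference was -0.35.

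**Figure D2:**
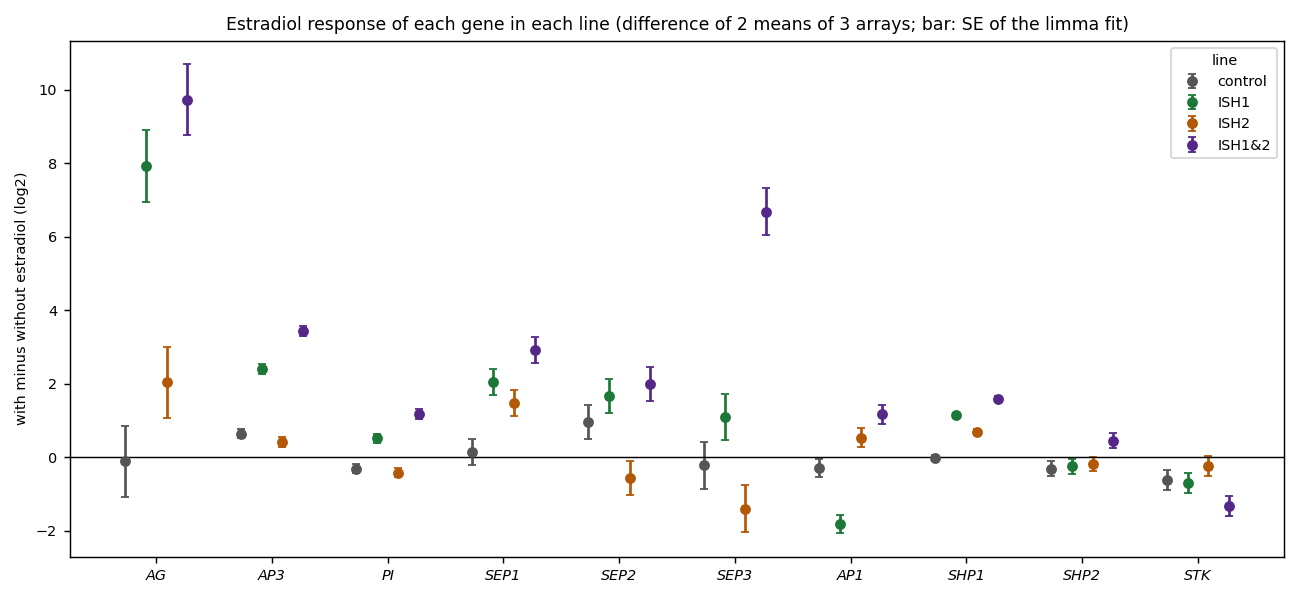
Difference with minus without estradiol (vertical axis, log2) for the 10 genes (horizontal axis) in the 4 lines, from the brightest probe; points are differences of 2 means of 3 arrays and bars the SE of the limma fit. AP3, PI, SEP1 and SHP1 were highest in ISH1&2 and next in ISH1, and AP1 went below 0 in ISH1 and above it in ISH1&2. Differences of AG, SEP1 and SEP2 rest on uninduced arrays mostly not above background.

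AP1, the class A gene, lay in opposite directions in ISH1 and ISH1&2. In ISH1 it read -6.44, -7.44 and -7.33 with estradiol and -4.54, -5.47 and -5.75 without, a difference of -1.81 (SE 0.25), or -1.46 (SE 0.22) without the array that stood apart. With normexp background correction the ISH1 difference was -0.20 (SE 0.55) and was not called, nor was that of ISH1&2 (0.74, SE 0.55). In ISH1&2 it read -5.27, -5.04 and -5.30 with and -6.30, -6.42 and -6.41 without, a difference of 1.17 (SE 0.25) or 2.26-fold. The ISH2 arrays read -6.14, -5.84 and -5.74 with and -6.30, -6.55 and -6.47 without estradiol, a difference of 0.54 that was not called. None of these 3 pairs of groups overlapped. With estradiol, AP1 in ISH1&2 lay above AP1 in ISH1 by 1.86 (SE 0.25), and by 1.17 to 2.40 on each slide. In the control line the groups overlapped (difference -0.29, SE 0.25, adjusted p = 0.497).

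Among the relatives of AG, SHP1 was, by the brightest probes, the one gene of the 10 whose arrays with estradiol lay above those without in all 3 inducible lines while the groups of the control line overlapped. By its other probe AG did so too. SHP1 read -3.41, -3.51 and -3.70 in ISH1&2, -3.99, -4.05 and -3.97 in ISH1 and -4.50, -4.59 and -4.64 in ISH2 with estradiol. Without it the arrays read -5.03, -5.19 and -5.14 in ISH1&2, -5.0, -5.16 and -5.26 in ISH1 and -5.23, -5.37 and -5.22 in ISH2. The SHP1 differences were 1.58, 1.14 and 0.70 (SE 0.08 each), or 2.99-fold, 2.20-fold and 1.62-fold. The control line differed by -0.02 (SE 0.08, adjusted p = 0.891), with groups that overlapped.

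SHP2, which acts redundantly with SHP1 in the fruit, differed little. It read -5.54, -5.77 and -5.75 in ISH1&2 with and -6.31, -6.09 and -6.01 without estradiol, groups that did not overlap but whose difference of 0.45 (SE 0.20) was not called. In ISH1 and ISH2 the groups overlapped, with differences of -0.24 and -0.18. STK, an ovule identity gene, was lower. It read -6.61, -7.67 and -7.58 in ISH1&2 with and -5.86, -6.00 and -5.99 without estradiol, a difference of -1.33 (SE 0.27). In ISH1 the difference was -0.70, and it was not called without the array that stood apart (-0.72, SE 0.31). The control line gave -0.61 (SE 0.27, adjusted p = 0.138), with groups that did not overlap either. The STK response minus that of the control line was thus -0.72 (SE 0.38) in ISH1&2 and -0.09 (SE 0.38) in ISH1. In level, STK in ISH1 with estradiol lay above the control line of the same slide by 0.42 to 0.54. In ISH1&2 it lay from -0.97 to 0.36.

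**Figure D3:**
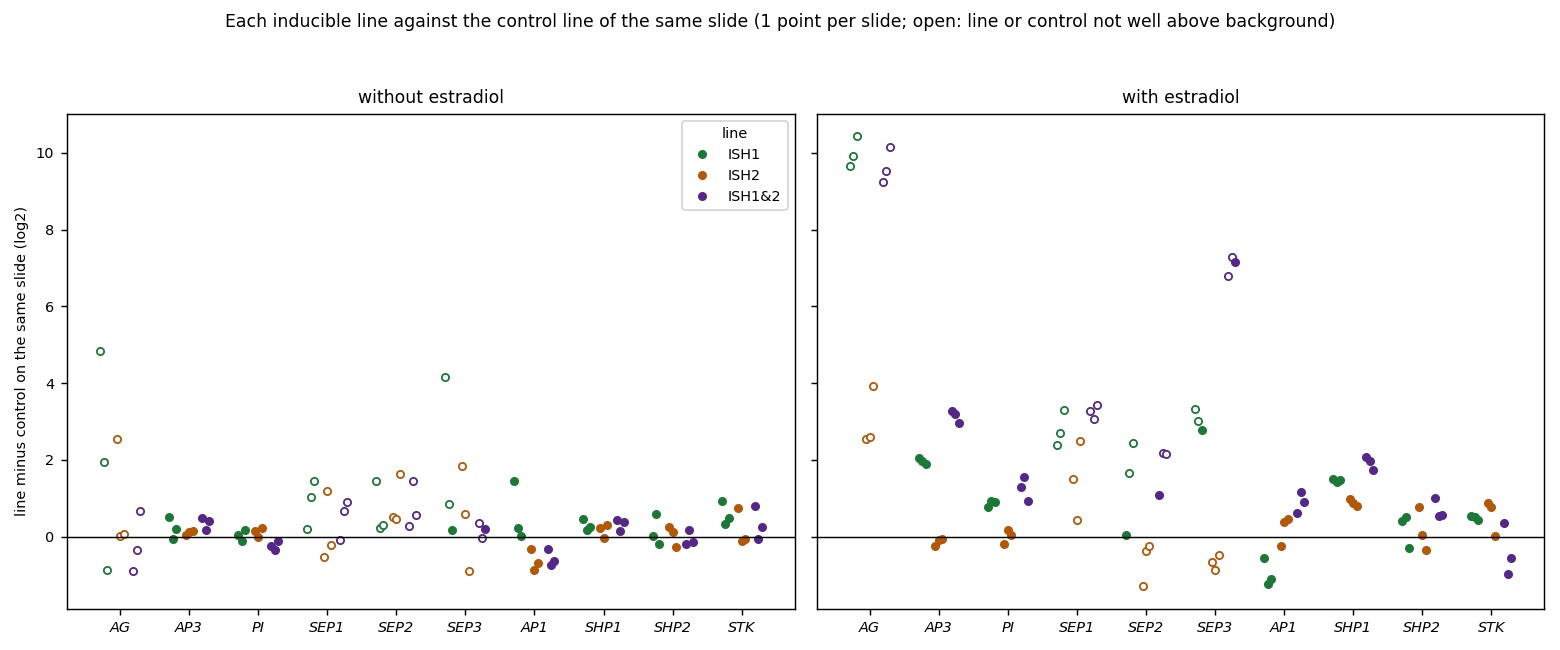
Each inducible line minus the control line of the same slide (vertical axis, log2) for the 10 genes, without (left) and with (right) estradiol; each point is 1 slide, with 3 slides per treatment, and open points have the line or the control not well above background, so they are not measured differences. AP3, PI and SHP1 have filled points throughout, with SHP1 0.79 to 2.07 above the control in the lines with estradiol, and all AG points are open.

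Within slides with estradiol, AP3 was above the control line by 2.97 to 3.27 in ISH1&2 and by 1.88 to 2.04 in ISH1. For SEP3 the control line was above background on 1 of these 3 slides, where SEP3 was higher by 7.14 in ISH1&2 and by 2.79 in ISH1. SHP1 was above it on all 9 pairs, by 0.79 at the least (ISH2) and 2.07 at the most (ISH1&2). For ISH2, AP3 was below the control line on all 3 slides, with differences of -0.25 to -0.05.

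On plates without estradiol, the lines were compared with the control line in a contrast that the choice of the genes did not use. It shares arrays with the estradiol contrasts, however, and earlier results of it were known. None of the 10 genes was called in ISH1 without estradiol, where 0.766% of all genes were called (13.2% at an unadjusted p under 0.05), and none in ISH2, where 0.651% were (10.6% unadjusted). In ISH1&2, SHP1 was called, where 9.62% of all genes were, 4.17% higher and 5.45% lower: it read -5.03, -5.19 and -5.14 against -5.46, -5.33 and -5.52 in the control line, 0.32 higher (SE 0.08, adjusted p = 0.014). The groups did not overlap, but the call was lost when ISH1&2 replicate 1 or control replicate 1 or 3 was left out (adjusted p = 0.0552 to 0.0685) and in a fit of those 6 arrays alone (adjusted p = 0.0873). SHP1 in ISH1 was 0.30 higher (adjusted p = 0.082). AG in ISH1 was above background on the array that stood apart and on no other ISH1 or control array, and it was not called (adjusted p = 0.399). SEP3 in ISH1 was 1.73 higher (adjusted p = 0.249), with 1 of 3 control arrays above background, and 0.62 higher without the array that stood apart. AP1 lay below the control line in ISH1&2 (-0.57, adjusted p = 0.175) and in ISH2 (-0.63, adjusted p = 0.371) on arrays that did not overlap, and neither passed the test. ATHB25 and REM7 were called without estradiol. ATHB25 was at least 219-fold higher in ISH1&2 (adjusted p = 8.7e-11) and at least 15.6-fold higher in ISH1 (adjusted p = 1.3e-06) than in the control line. REM7 was 6.20 higher on the log2 scale in ISH1&2 (adjusted p = 4.6e-08).

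**Figure D4:**
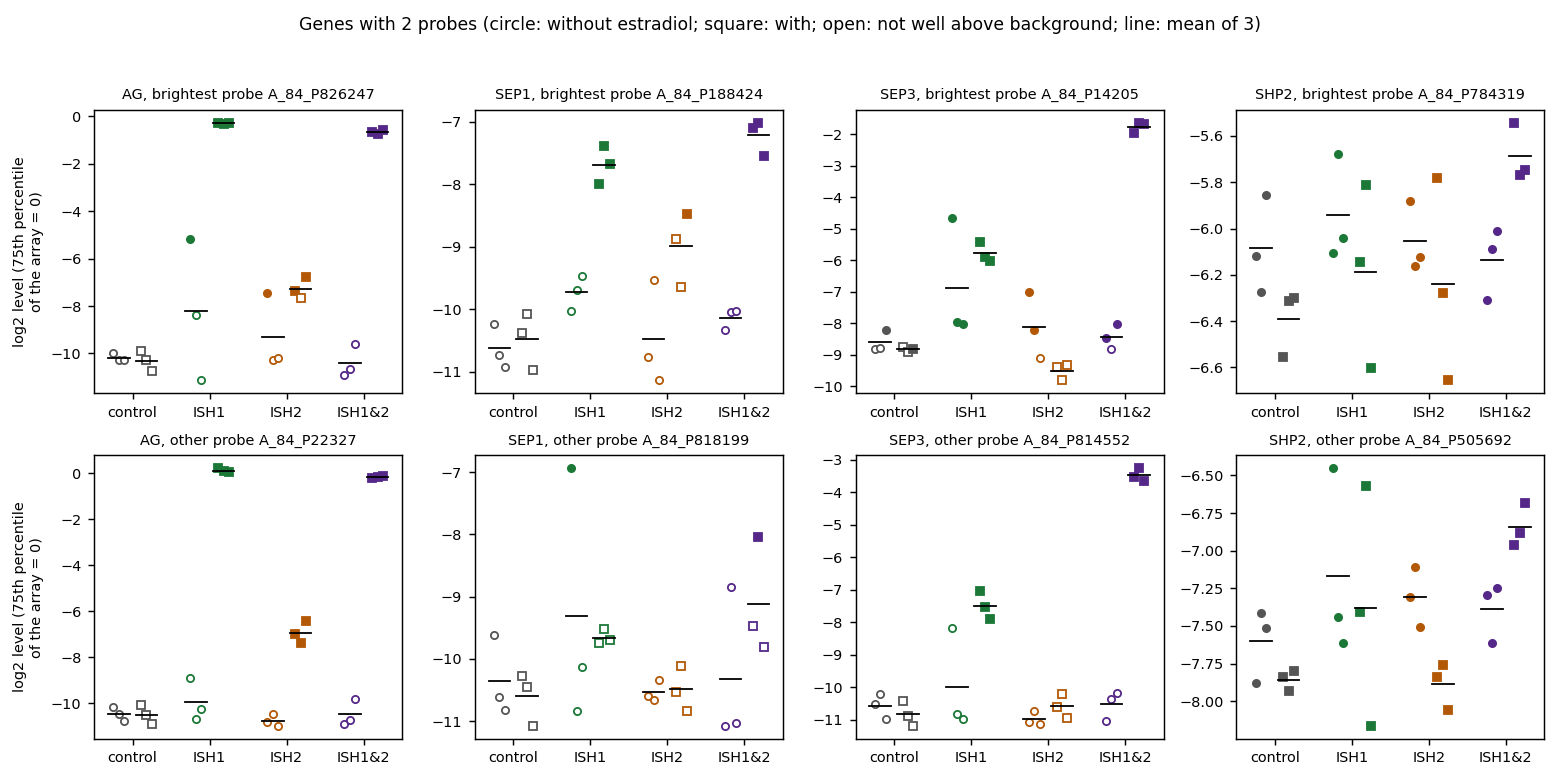
Log2 level (vertical axis) by line (horizontal axis) for the 4 genes with 2 probes, the brightest above and the other below; circles are without and squares with estradiol, open symbols are not well above background. The pair of AG probes and the pair of SEP3 probes ran in parallel (Pearson r = 0.97 and 0.95 over 24 arrays), while the second SEP1 probe was well above background on 2 arrays.

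The probes of a gene were compared over the 24 arrays, which share their 8 groups. The AG probes had r = 0.97, those of SEP3 0.95, those of SHP2 0.61 and those of SEP1 0.39. Both AG probes were above background on 8 arrays together, and both SHP2 probes on all 24. The second SHP2 probe gave 0.54 in ISH1&2, -0.21 in ISH1 and -0.58 in ISH2, the last from groups that did not overlap, against -0.18 and overlapping groups by the first.

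The other MIKC-type MADS genes, the family to which the 10 belong, were 28 on the array, 26 of them tested. In ISH1&2, 8 were higher and 16 lower with estradiol (24 of 26, with 64.6% of all genes called), and their median was -0.39. In ISH1, 5 were higher and 15 lower, where 62.8% of all genes were called, and in ISH2 3 and 3, where 49.2% were. AGL6, a relative of the SEP genes, read -2.91, -2.92 and -3.02 in ISH1&2 with estradiol and -8.41, -8.12 and -9.30 without, and rose by 5.66 (SE 0.55, adjusted p = 4.7e-08), and by 2.00 in ISH1 (adjusted p = 0.0043), or 2.69 without the array that stood apart (adjusted p = 1.9e-04). TT16, a sister of the class B genes that acts in the seed coat, rose in both lines, in ISH1 from 1 uninduced array above background, the one that stood apart. It read -4.10, -4.14 and -3.76 in ISH1 and -5.64, -6.10 and -6.34 in ISH1&2 with estradiol, and was at least 6.54-fold higher in ISH1&2. TT16 entered the fit only through these groups, so its rise is given as a description and not as a test. FUL, the closest relative of AP1 beside CAL, rose by 3.45 (SE 0.12, adjusted p = 3.2e-14) in ISH1, where AP1 was lower, and by 0.43 in ISH1&2 (adjusted p = 0.0035). CAL was called in none of the 3 inducible lines. SEP4 fell in ISH1 (-0.78, adjusted p = 4.4e-06) and rose in ISH1&2 (0.86, adjusted p = 9.9e-07). SOC1, a flowering-time gene, fell by 1.03 in ISH1&2 (adjusted p = 1.5e-07), and AGL14 and AGL19, expressed in roots, fell too. AGL14 fell by 5.42 (adjusted p = 7.5e-12) and AGL19 fell by 4.31 (adjusted p = 9.2e-14). AGL79 was at least 9.60-fold lower in ISH1&2 (adjusted p = 5.3e-09). FLC, a repressor of flowering, was 3.07 higher in ISH1&2 (adjusted p = 2.0e-04).

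Of 17 genes that act upstream of the floral MADS genes, 16 were tested (FUL and CAL stand in this list and among the MIKC-type genes), and in ISH1&2 8 rose and 5 fell with estradiol, with a median of 0.26, where 64.6% of all genes were called, 31.6% higher and 33% lower. WUS, which activates AG in the flower meristem, was at background on every control array and on all uninduced ISH1 and ISH1&2 arrays. It read -3.76, -3.19 and -3.16 in ISH1&2 and -5.78, -5.50 and -5.79 in ISH1 with estradiol, at least 41.1-fold and at least 6.79-fold higher. WUS entered the fit only through these groups, where it had to differ, so its rise is given as a description and not as a test. In ISH2 with estradiol WUS was above background on 1 array, at -6.72. LFY, the activator of AP1, AP3 and AG, did not go that way. It was above background on all 3 ISH1&2 arrays without estradiol, at -7.30, -7.45 and -7.22, and on none with it, at least 3.20-fold lower (adjusted p = 2.7e-09), and it fell by 0.42 in ISH1 and by 1.32 in ISH2 (adjusted p = 0.020 and 8.4e-07). It fell by 0.49 in the control line too (adjusted p = 0.034). UFO, which acts with LFY on AP3, did not enter the fit, with 2 of 24 arrays above background. BOP1 rose by 5.04 and STM by 2.51 in ISH1&2, STM from 1 of 3 arrays above background without estradiol, and SPL3 fell by 2.56 and FD fell by 1.95 (adjusted p = 3.3e-11, 2.0e-05, 3.2e-13 and 6.5e-08).

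Among 20 known repressors of the floral MADS genes, 19 were tested, and in ISH1&2 2 rose and 7 fell with estradiol (median -0.11), where 64.6% of all genes were called, and in ISH1 3 rose and 10 fell, where 62.8% were. EMF1, a Polycomb-pathway gene, rose by 0.34 in ISH1&2 and 0.56 in ISH1 (adjusted p = 1.7e-07 and 2.3e-10), SWN by 0.11 in ISH1&2. The Polycomb genes CLF, EMF2, FIE and MSI1, named here after their values were seen, were not called in ISH1&2. AP2, which keeps AG out of the outer whorls, fell by 1.05 in ISH1&2 and by 0.59 in ISH1 (adjusted p = 4.2e-11 and 1.4e-07), and rose by 0.15 in ISH2 and 0.24 in the control line. TFL1 fell by 1.82 and ANT fell by 1.11 in ISH1&2 (adjusted p = 9.1e-08 and 3.7e-08). Of 17 genes known as targets of floral MADS proteins, 10 were tested, and in ISH1&2 4 rose and 4 fell, where 64.6% of all genes were called. HEC1 and HEC3, which act in the carpel, rose by 4.29 and 2.98 (adjusted p = 6.2e-09 and 4.8e-08). VDD had no uninduced ISH1&2 array above background, and its rise of at least 8.31-fold is given as a description and not as a test. GIK, a direct target of AG, fell by 4.50 (adjusted p = 1.0e-12), STY1 fell by 2.81 and GA3OX1 fell by 1.54. The carpel and stamen genes CRC, SPL/NZZ, HEC2, IND, DAD1, KNU and JAG did not enter the fit, and were above background on 5, 1, 2, 0, 1, 0 and 0 of 24 arrays.

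Over the 24 arrays, the genes with the pattern most like that of the brightest AG probe were AT5G40180 (Pearson r = 0.981), the probe names NP237458 (0.980) and CD531672 (0.978), AT4G21500 (0.975) and CRK15, a receptor-like kinase gene (0.975). The arrays share their 8 groups, so r mostly follows the group means. Of these 5, NP237458 was among the 5 highest with the other AG probe too, and the other 4 were not. CRK15 read -0.72 in ISH1 and -2.00 in ISH1&2 with estradiol (means of 3, SD 0.10 and 0.19) and -7.39 (SD 0.34) in ISH2. Of the other 9 floral genes, SHP1 was nearest to AG (r = 0.93, rank 296 of 27813), followed by AP3 (0.91), SEP1 (0.89), SEP3 (0.82), PI and SEP2 (0.80 each), and SHP2, AP1 and STK were at 0.30, 0.02 and -0.42.

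The tissue label was checked with marker lists. All 10 root markers were well above background on every array of every group, and their summed level was 63.2 to 67.3 in ISH1&2 and 70.1 to 74.6 in ISH1 with estradiol, against 82.2 to 94.3 in the control line with estradiol. The summed level of 6 leaf markers was 78.7 to 84.9 in ISH1&2 with estradiol, 12.5 to 17.0 in ISH1, 2.48 to 3.61 in ISH2 and 13.8 to 19.5 in the control line. LHCA1, a light-harvesting gene, rose by 2.78 in ISH1&2 and fell by 2.04 in ISH2. With estradiol, the leaf marker ranges of ISH1 and the control line overlapped while that of ISH1&2 lay above both. The summed root marker ranges of ISH1 and ISH1&2 lay below that of the control line. Of the 6 leaf markers, 4 rose and 0 fell with estradiol in ISH1&2 (median 1.75, 64.6% of all genes called). In ISH1 0 rose and 5 fell (median -0.70, 62.8% called), and in ISH2 0 rose and 4 fell (median -1.90, 49.2% called). In the control line 0 were called, beside 15% of all genes. Counted gene by gene, 6 root markers rose and 3 fell with estradiol in ISH1&2 (median 0.33), where 64.6% of all genes were called. In ISH1 5 rose and 3 fell (median 0.13), where 62.8% were called. The sum and the median of the root markers thus went opposite ways. TIP2;3, an aquaporin gene, fell by 5.40 in ISH1&2, and WOX5, a gene of the root stem cell niche, rose by 2.59. The part of root and leaf marker levels in the values of the 10 genes was not tested. The 5 anther and tapetum markers summed to 0.274 to 0.288 in ISH1&2 with estradiol and to 0.303 to 0.351 in the control line. Of the 5, 2 rose and 1 fell in ISH1&2 and 1 rose and 1 fell in ISH1, beside the same 64.6% and 62.8% of all genes called. AMS rose by 1.86 in ISH1&2 and 1.69 in ISH1, MS2 rose by 0.76 in ISH1&2, and LAP6 fell by 0.44 in ISH1&2. Of the 5 seed markers, 3 were well above background on all 3 ISH1&2 arrays without estradiol, with a summed level of 0.0567 to 0.617, against 0.0048 to 0.00895 in the control line.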

How the data were processed

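RNA of roots from 24 samples was hybridised to one-colour Agilent arrays. The deposited scanner files give spot intensities, background corrected by the authors with Agilent Feature Extraction 10.7.3.1 (version per the file headers). The authors also deposited log2 values, shifted to the 75th percentile of each array and centred on the median of each probe. These served as an alternative and correlated with the values used here at r of at least 0.99992. No columns of other samples were present, and no table of the authors' own comparisons was used.

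Levels were log2 of the processed signal minus the 75th percentile of the array. Control spots and 346 flagged spots were left out, and 0 spots were saturated. Of 43603 probes, 34348 were matched by the annotation table to a locus, and the 36571 that were well above background on all 3 arrays of a group were kept. The brightest probe over all arrays stood for a gene, which left 27814 genes or probe names, 22279 of them matched. Groups followed the sample titles. limma 3.58.1 (R 4.3.3) was fitted to all 24 arrays with 8 group means and no block, with Benjamini-Hochberg adjustment over all genes, and a gene was called at an adjusted p under 0.05. Two-sided tests were used throughout. A probe not well above background on any array of a group has only a bound there. Its fold is the mean of the brighter group over a mean for the dimmer group. That mean takes, per array, the higher of the probe's own signal and the lowest signal well above background. These bounds hold for the background correction used here and can be smaller with another. The script was tested on simulated data. Replicate arrays correlated at 0.9823 to 0.997, and the number of arrays limits the precision.

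The 10 genes and all gene lists were chosen with earlier results of these data known. Named genes were the 10, ATHB25 and REM7, LFY, WUS, UFO, SOC1, FUL, CAL, SEP4 and AGL6, up to 3 risen and 3 fallen genes per list in ISH1&2, and the 5 genes most correlated with AG. The alternatives covered normalization, background, pseudocount, filter, probe choice, blocks and leaving out each array.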

Additional observations from a re-analysis of the deposited data

Results flagged for a closer look

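The results below were singled out because, between 2 lines, the estradiol responses of a gene went opposite ways with no overlap between the arrays with and without estradiol in either line. A line counted only where the gene was detected above background on every array of at least 1 of its groups, which left out SEP3 in ISH2, where 2 of 6 arrays were above background. Each value is the log2 response of the first line minus that of the other, and the difference itself was not tested. Over all genes, the arrays with estradiol lay above those without for 26.9% and below for 38.3% in ISH1. These shares were 31.7% and 24.9% in ISH2, 35.2% and 35.8% in ISH1&2, and 18.7% and 19.4% in the control line. Lack of overlap was thus common, and not all responses below were called. Groups held 3 arrays, too few for a test of single outlying arrays. Comparisons that share a line share its arrays.

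AP1 was higher with estradiol in ISH2 and ISH1&2 and lower in ISH1, and the responses differed by 2.35 and 2.99. The AP1 response in ISH2 was not called. PI was higher in ISH1 and ISH1&2 and lower in the control line, where it was not called (adjusted p = 0.106), and ISH2. ISH1 exceeded the control line by 0.835 and ISH2 by 0.946 for PI, and ISH1&2 exceeded them by 1.49 and 1.60. SHP2 was higher in ISH1&2 and lower in the control line, by a difference of 0.756. Neither SHP2 response was called (control line adjusted p = 0.347).

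BOP1, a transcriptional co-regulator gene, exceeded the control line by 2.20 and ISH2 by 2.61 in ISH1, and by 5.87 and 6.28 in ISH1&2. AP2 gave 0.828 for the control line and 0.745 for ISH2 over ISH1, and 1.29 and 1.20 over ISH1&2. SWN, a Polycomb methyltransferase gene, gave 0.130 for ISH2 over ISH1, where its response was not called (adjusted p = 0.087). STY1 gave 0.958 for ISH2 over ISH1 and 3.13 over ISH1&2. The corresponding values were 1.72 and 5.85 for AGL14 and 1.06 and 4.83 for AGL19. SEP4, the remaining SEP gene, gave 1.64 for ISH1&2 over ISH1.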

How the results depend on the processing

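Each result was recomputed under 15 other settings and with each of the 24 arrays left out. Of the differences of the 10 genes in the uninduced and control comparisons, few of which were called, 578 under other settings and 235 with an array left out stayed on their side of the threshold, 5 and 3 lost their call, and 1 and 2 gained one. Among those called neither before nor after, 50 changed sign. Of their estradiol differences in the inducible lines, 383 and 171 moved by less than the spread between replicates and 53 and 9 by more. Another 2 and 0, all called in the main fit, changed direction. Changes of sign in differences not called were sorted by size only. With an array left out, SHP2 in ISH2 went from -0.18 to 0.02 and STK in ISH2 from -0.23 to 0.10. With normexp background correction and an offset of 50, the genes called among the 10 were 0 in uninduced ISH1&2, 0 in the control line, 4 in ISH1, 0 in ISH2 and 5 in ISH1&2, and STK in ISH1 turned from -0.70 to 0.24. Over all genes the normexp calls were 1060, 1944, 11862, 8693 and 12663, in the same order of comparisons. The offset compresses dim signals by construction. In the control line, each of the 10 differences moved upward with it, AG from -0.11 to 0.92 and STK from -0.61 to 0.49. The cause of these changes was not tested. Keeping only the probes detected on every array gave 5 in ISH1 and 5 in ISH1&2, since 6 of the 10 genes were then tested. Over all genes so kept, 15932 and 16217 were called. A 2-fold minimum gave 0 in uninduced ISH1&2, 0 in the control line and 1 in ISH2, beside 184, 217 and 2096 over all genes. A fit of the compared arrays alone gave 0 in uninduced ISH1&2, from fewer samples. The other SEP1 probe turned its ISH1 difference from 2.04 to -0.35, and the cause was not tested. With an array left out, the calls were 0 to 2 in uninduced ISH1, 0 to 0 in uninduced ISH2, 0 to 1 in uninduced ISH1&2, 1 to 1 in the control line, 7 to 8 in ISH1, 3 to 5 in ISH2 and 9 to 9 in ISH1&2. Over all genes these ranges were 80 to 422, 69 to 112, 999 to 2539 and 2516 to 2967 for the uninduced and control comparisons. They were 16145 to 16897 in ISH1, 12127 to 13142 in ISH2 and 16870 to 17246 in ISH1&2. The 2 calls among the 10 in uninduced ISH1 came without its replicate 3, for AG (3.42, adjusted p = 0.0376) and SHP1 (0.36, adjusted p = 0.0339).

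Same-numbered arrays of a line with and without estradiol deviated together at r of -0.036 to 0.099, so the numbers were not taken to pair them. With the replicate block the control line had 2 calls, PI being added (-0.31, adjusted p = 0.0422). Over all genes, the calls in ISH1&2 were 17962, and 5390 to 18269 under other settings. In the control line they were 4169, and 217 to 4508. In uninduced ISH1 they were 213, against 12 to 324, and 80 to 422 with an array left out. In uninduced ISH1&2 they were 2677, against 149 to 3376. In ISH1 they were 17455, against 3942 to 18131, in ISH2 13691, against 2096 to 14037, and in uninduced ISH2 181, against 45 to 235. In ISH1&2 the calls among upstream genes were 13 (8 to 14), repressors 9 (3 to 13), targets 8 (5 to 9) and MIKC-type genes 24 (11 to 25). Without ISH1 replicate 1 without estradiol, or with the other AG probe, both chosen after seeing the data, NP237458 was the one gene among the 5 most like AG in every case.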
